A study of Mus musculus with 7 samples.

Results

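The 39 genes described here encode the proteins that store, dock, fuse and recycle synaptic vesicles, and they were taken by name from a fixed list out of 20859 genes in the count table. All 39 had counts, and 38 passed the filter on low counts in every comparison. Syn3, a synapsin paralogue with 1 to 17 counts per well, did not and was not tested. Expression was measured by bulk mcSCRB-seq, in which the 3' ends of transcripts receive a well barcode and the wells are sequenced as a pool. Counts were scaled to the library size as CPM, so levels are compared between mice for 1 gene and not between genes.

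The tissue was cortex and hippocampus from 24 mice, of which 23 gave both regions, in 7 library pools. One group was wild type with the treatment label PBS (WT, 9 cortices and 8 hippocampi). The other groups had the genotype label FAD, in a study of a mouse model of Alzheimer's disease in which CD38 was targeted, with the treatment label IgG (FAD IgG, 7 and 7) or CD38 (FAD CD38, 7 and 7). Genotype and treatment differ together in every comparison with WT and cannot be told apart there, while the 2 FAD groups share the genotype. The sources used here do not give the transgenes behind the FAD label, their promoter, what was given under the CD38 label, or the age and sex of the mice. One further mouse was labelled IgG in its well name and CD38 in the sample sheet and entered only the comparison of regions. In bulk tissue, fewer cells of a type and less RNA per cell cannot be told apart.

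At a presynaptic terminal, synapsins tether vesicles, active zone scaffolds such as Rims1 and Bsn dock and prime them, and the SNARE proteins Vamp2, Snap25 and Stx1a zipper together to fuse them with the plasma membrane. Complexins clamp the assembled SNAREs, synaptotagmins sense calcium, and Nsf with its adaptor Napb takes spent complexes apart. Dynamin, amphiphysin, synaptojanin and AP180 (Snap91) then retrieve the membrane, while the transporters Slc17a6 and Slc17a7 refill vesicles with glutamate.

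Promoter sequence is shown for the 3 members that differed from WT in the mean of both regions in each FAD group, and for Stx1a, which differed most between regions. Each line gives the 200 bases upstream of the RefSeq gene start in GRCm38.p6, on the strand of the gene, with the GC box GGGCGG, searched on either strand, in capitals.
Syngr1, chr15:80091134-80091333, plus strand: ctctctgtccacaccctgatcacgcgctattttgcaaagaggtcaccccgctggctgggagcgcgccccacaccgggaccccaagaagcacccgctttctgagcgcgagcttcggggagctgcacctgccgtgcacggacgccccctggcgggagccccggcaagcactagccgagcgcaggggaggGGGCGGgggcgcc
Rims1, chr1:22806159-22806358, minus strand: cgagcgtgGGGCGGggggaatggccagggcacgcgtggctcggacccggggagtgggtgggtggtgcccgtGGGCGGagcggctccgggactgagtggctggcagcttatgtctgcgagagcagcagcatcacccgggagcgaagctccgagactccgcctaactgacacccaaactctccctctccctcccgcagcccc
Lin7b, chr7:45370565-45370764, minus strand: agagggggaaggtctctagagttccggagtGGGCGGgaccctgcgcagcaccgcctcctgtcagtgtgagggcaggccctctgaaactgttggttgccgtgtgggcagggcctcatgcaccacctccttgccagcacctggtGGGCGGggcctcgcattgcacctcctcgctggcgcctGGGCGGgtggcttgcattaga
Stx1a, chr5:135023282-135023481, plus strand: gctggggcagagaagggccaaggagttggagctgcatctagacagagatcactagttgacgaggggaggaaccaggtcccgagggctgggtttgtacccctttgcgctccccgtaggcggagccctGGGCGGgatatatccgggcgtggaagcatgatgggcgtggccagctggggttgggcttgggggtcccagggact

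Of the 39 members, 31 had a promoter window of 300 bases (250 before the start and 50 after it), 43 windows in all. Searched on both strands, GGGCGG stood in 60.5% of the members' windows and 35.7% of all 32851 windows in the table. CCAAT stood in 20.9% against 37.4%, TATAAA in 4.65% against 13.6%, CACGTG in 4.65% against 7.15% and TGACGTCA in 2.33% against 1.79%. The single TGACGTCA match was in the Syn1 window. GGGCGG stood in windows of members that were higher in FAD (Syngr1, Rims1), lower in FAD (Lin7b, Synpr) and without a call (Syp, Syt1).

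Total counts per well ran from 1270918 to 5101368, and the ribosomal RNA share from 3.15% to 20.6%. In hippocampus 2 wells stood apart for the members. WT replicate 9 had the ribosomal RNA share of 20.6% and a mean log2 CPM over the members of 7.29, where the other WT hippocampi lay between 6.90 and 7.04. FAD CD38 replicate 4 had a choroid plexus marker sum of 19011 CPM, against 89.1 to 144.9 CPM in the other hippocampi of its group, and 1.25% mitochondrial counts. FAD IgG hippocampus replicate 4 (9699 CPM) and FAD CD38 cortex replicate 7 (1932 CPM) also carried choroid plexus transcripts. Fits of members that rest on these wells are given with and without them. The ratio of Slc17a7 to Slc17a6 was not computed without these wells alone, only with whole pools left out. Thy1 was left out of the sum of pan-neuronal markers. The 18 others in the count table were counted in each group. The median of their summed level lay between 6186 and 6488 CPM in the cortex groups and between 5911 and 6262 CPM in the hippocampus groups. Among all 19 pan-neuronal markers tested, Thy1 included, the largest log2 fold change against WT was 2.21 (FAD IgG) and 2.36 (FAD CD38) in cortex. In hippocampus it was 2.52 and 2.56. The median over these 19 markers was 0.06 (FAD IgG) and 0.13 (FAD CD38) in cortex and -0.02 and -0.03 in hippocampus.

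Most of the release genes passed no test between FAD and WT mice, and a small set did. Averaged over both regions, Syngr1 and Rims1 rose and Lin7b fell in FAD IgG and in FAD CD38 mice against WT. In FAD CD38 mice, Syngr3 and Synpr were called lower as well, and in FAD IgG mice they were not. With voom sample quality weights they were also called lower in FAD IgG (-0.30 and -0.25, adjusted p = 0.0306 and 0.025). Neither was called in the mean of FAD IgG when wells of high ribosomal RNA share were left out. Calls rest on p-values adjusted over all genes tested (Benjamini-Hochberg, threshold 0.05), from edgeR's quasi-likelihood test within a region and from limma-voom for the mean of both regions. In the mean of both regions 2 members rose and 1 fell of 38 in FAD IgG, where 5.68% of all genes rose and 1.7% fell. For FAD CD38 the counts were 2 and 3 of 38, beside 5.82% and 2.76% of all genes. Both comparisons share the WT mice.

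**Figure D1:**
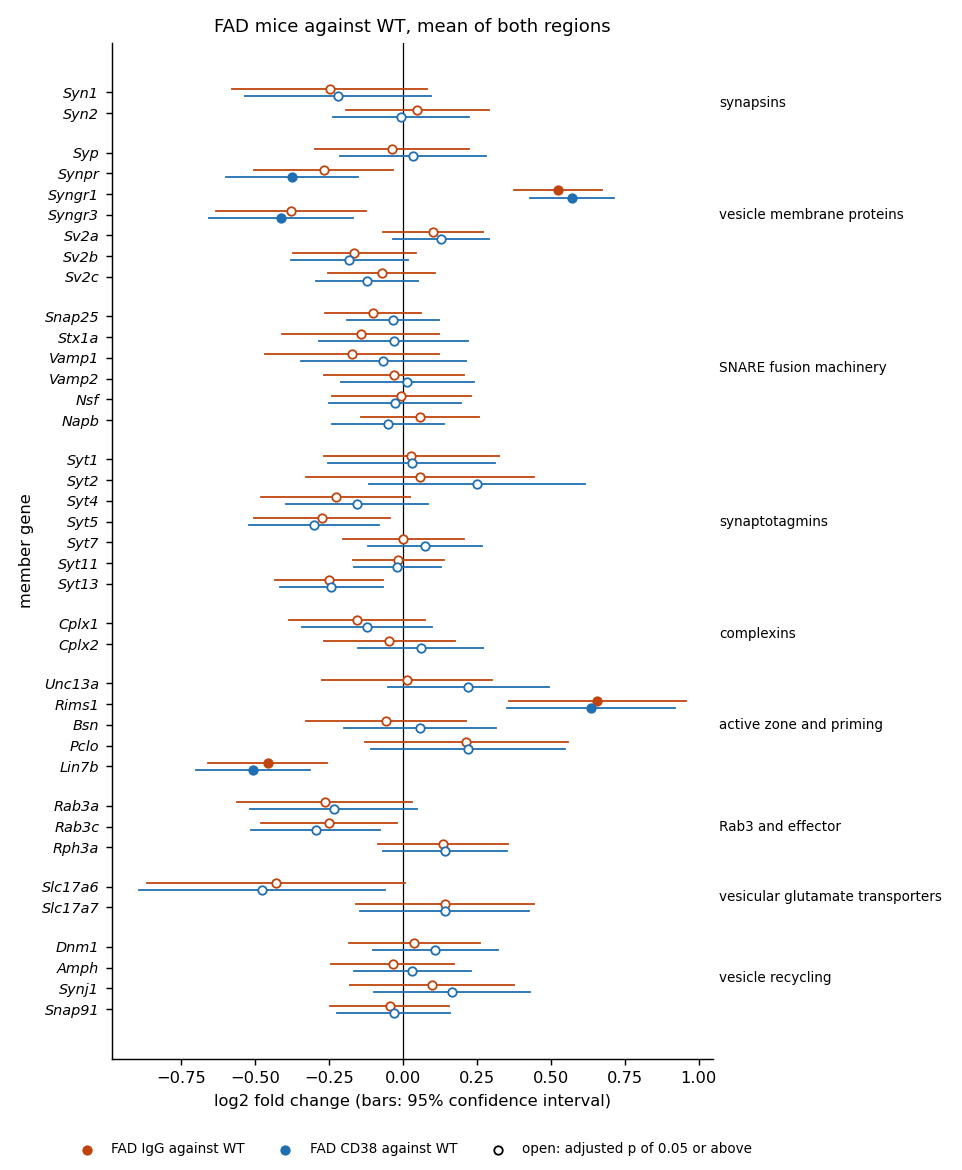
Log2 fold change of the 38 tested members (vertical axis, grouped by role) against WT as the mean of both regions, for FAD IgG (orange) and FAD CD38 (blue), with 95% confidence intervals from limma-voom; filled points were called. Syngr1 and Rims1 lie to the right of 0 and Lin7b to the left in both comparisons, Synpr and Syngr3 are filled for FAD CD38, and the intervals of the SNARE, complexin and recycling groups include 0.

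Counts within a region were no larger than those in the mean. In cortex of FAD IgG mice 1 member rose and 0 fell, against 3.34% and 0.532% of all genes, and 5 of 38 had an unadjusted p under 0.05. In cortex of FAD CD38 mice 2 rose and 2 fell (all genes: 3.3% and 1.23%). In hippocampus 2 rose and 1 fell in FAD IgG (all genes: 4.48% and 0.416%), and 1 rose and 3 fell in FAD CD38 (all genes: 4.56% and 0.754%). The median log2 fold change of the members was 0.04 in cortex for FAD IgG against WT and 0.10 for FAD CD38, beside medians of 0.01 over all genes in both comparisons. The FAD IgG value turned to -0.03 without wells of high ribosomal RNA share and ran from -0.03 to 0.08 with 1 pool left out. In hippocampus the members' medians were -0.08 and -0.09, beside 0.0034 and 0.01 over all genes.

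Among the vesicle membrane proteins, Syngr1, a tetraspanning synaptogyrin, was higher in FAD mice of both groups and regions. In cortex its lowest, median and highest values were 92.2, 110.3 and 128 CPM in WT, 119.8, 158 and 166 CPM in FAD IgG, and 143.5, 156 and 181 CPM in FAD CD38. Every FAD CD38 cortex lay above every WT cortex, and the FAD IgG and WT ranges met only through FAD IgG replicate 7. Groups that do not overlap were seen for 1.63% of all genes in the cortex comparison of FAD CD38 with WT and for 1.82% in that of FAD IgG with WT, where no member had separate ranges. The log2 fold changes were 0.47 ± 0.10 (SE, edgeR adjusted p = 0.00328) for FAD IgG and 0.54 ± 0.09 (adjusted p = 0.000451) for FAD CD38.

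In hippocampus Syngr1 ran through 84.55, 88.8 and 103 CPM in WT, 114, 140.0 and 163 CPM in FAD IgG, and 97.6, 147 and 159 CPM in FAD CD38. FAD IgG and WT were fully separate, as were 3.03% of all genes, and the FAD CD38 range reached below the highest WT value only through replicate 4, the well with choroid plexus transcripts. The changes of Syngr1 were 0.61 ± 0.11 (edgeR adjusted p = 0.00136) and 0.63 ± 0.11 (adjusted p = 0.000672). Over both regions it rose by 0.52 (95% confidence interval 0.38 to 0.67) in FAD IgG and 0.57 (0.43 to 0.71) in FAD CD38. Syngr1 kept its call in all 19 alternative settings of each region and all 13 of the mean.

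Syngr3, another synaptogyrin, lay lower in FAD hippocampus. Its lowest, median and highest values there were 146, 249 and 335 CPM in WT, 138, 186 and 234 CPM in FAD IgG, and 136, 174 and 201 CPM in FAD CD38. The ranges overlapped because WT replicate 9, the well of high ribosomal RNA share, had the lowest WT value, and the other 7 WT hippocampi lay above all FAD CD38 values. The log2 fold change was -0.50 ± 0.14 for FAD CD38 (edgeR adjusted p = 0.0436) and -0.45 ± 0.15 for FAD IgG (adjusted p = 0.0975). The FAD IgG value was called in some other fits. Among them were DESeq2, voom sample quality weights and the ribosomal RNA share as a covariate (-0.40 to -0.46, adjusted p 0.00223 to 0.0428). The FAD CD38 call was lost without pools 5, 6, 7, 9, 10 or 11 in turn, with adjusted p between 0.0656 and 0.163 and changes between -0.46 and -0.53, without wells of high choroid plexus markers (adjusted p = 0.0518), and with only the 2 groups compared (0.118). Its mean over both regions, -0.41 (95% interval -0.66 to -0.17), lost its call without pools 5, 6, 10 or 11 (adjusted p 0.0626 to 0.111) and without wells of high choroid plexus markers (-0.32, adjusted p = 0.0871).

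Synpr, the synaptoporin gene related to synaptophysin, was called in cortex of FAD CD38 mice. Its values ran through 67.0, 84.2 and 102 CPM in WT, 46.5, 67.9 and 81.5 CPM in FAD IgG, and 51.6, 61.65 and 78.4 CPM in FAD CD38. The upper FAD mice overlapped the lower WT mice. Synpr fell by 0.42 ± 0.12 on the log2 scale in FAD CD38 (edgeR adjusted p = 0.0408), and the value for FAD IgG was -0.35 ± 0.12 (adjusted p = 0.143). With the ribosomal RNA share as a covariate the FAD IgG value was called (-0.34, edgeR adjusted p = 0.0448). Leaving out the cortex wells of high ribosomal RNA share instead gave -0.19 ± 0.12 for FAD IgG (edgeR adjusted p = 0.613). The FAD CD38 call was lost without pools 5, 6, 7, 8, 9 or 11 (-0.38 to -0.45, adjusted p 0.0574 to 0.141), without the filter on low counts (adjusted p = 0.053) and without the cortex that carried choroid plexus transcripts (adjusted p = 0.0867). Striatal markers moved with it: the sum of 11 such genes in cortex ranged over 442 to 862 CPM in WT, 247 to 751 CPM in FAD IgG and 249.8 to 637 CPM in FAD CD38, and their part in the result was not tested. In hippocampus the Synpr medians were 93.6, 87.8 and 82.6 CPM, with no call. Its mean over both regions in FAD CD38, -0.37 (95% interval -0.60 to -0.15), lost its call without pools 5, 6 or 11 (adjusted p 0.0719 to 0.111) and without the pool term (0.0581).

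Syp, the synaptophysin gene used as a general marker of terminals, and the Sv2 glycoproteins were not called against WT by edgeR within a region or by limma-voom in the mean. With voom sample quality weights Sv2a was called in the mean of FAD CD38 (0.19, adjusted p = 0.0339). The mean Syp difference over both regions was -0.04 (95% interval -0.30 to 0.22) for FAD IgG and 0.03 (-0.21 to 0.28) for FAD CD38. Its medians in WT, FAD IgG and FAD CD38 were 64.0, 69.4 and 71.8 CPM in cortex and 66.9, 52.5 and 57.6 CPM in hippocampus. For Sv2a the mean differences were 0.10 (-0.07 to 0.27) and 0.13 (-0.03 to 0.29), for Sv2b -0.16 and -0.18, and for Sv2c -0.07 and -0.12.

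**Figure D2:**
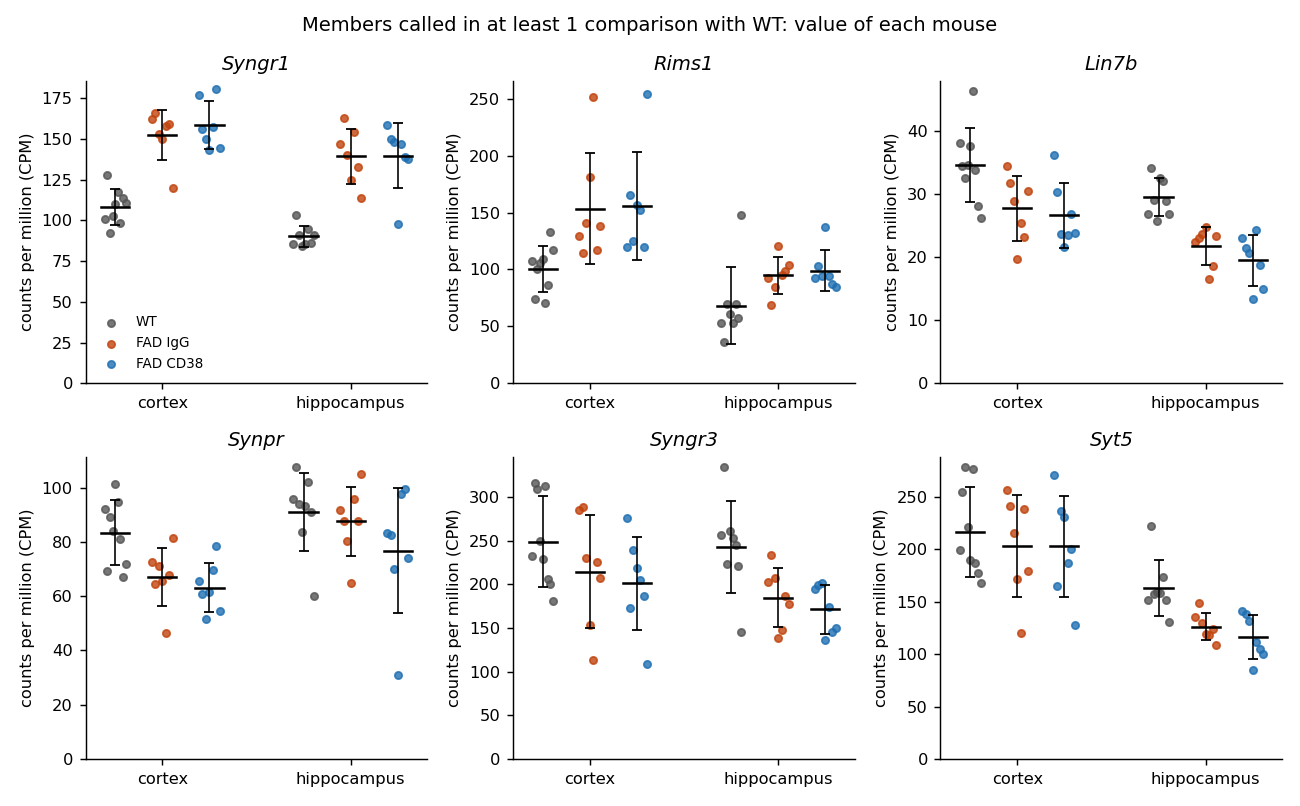
CPM of each mouse (points) with the group mean and 1 SD (bars) for the 6 members called against WT, in cortex and hippocampus, for WT (grey), FAD IgG (orange) and FAD CD38 (blue). Syngr1 is above WT in nearly every FAD well, Rims1 overlaps through single high or low wells, and Lin7b hippocampal values of FAD mice all lie below the lowest WT value of 25.8 CPM.

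Of the 5 active zone and priming genes, Rims1 and Lin7b moved in opposite directions and Unc13a, Bsn and Pclo passed no test. Rims1 organises docking and calcium channel recruitment at the release site. In cortex it ran through 70.7, 106 and 133 CPM in WT, 114, 138.5 and 252 CPM in FAD IgG, and 119.5, 152 and 255 CPM in FAD CD38. The FAD medians exceeded the highest WT value, yet the ranges overlapped. Rims1 differed by 0.67 ± 0.19 in FAD IgG (edgeR adjusted p = 0.0539, not called). Without the 2 cortex wells of high ribosomal RNA share, FAD IgG replicates 4 and 5, the value was 0.36 ± 0.16 (adjusted p = 0.376). It was called with DESeq2, no filter, only the 2 groups compared, no pool term, that share as a covariate or choroid plexus wells out (0.60 to 0.70, adjusted p 0.000329 to 0.044). With RLE factors, a mean of at least 10 counts or voom sample quality weights it was not called. In FAD CD38 Rims1 rose by 0.65 ± 0.18 (edgeR adjusted p = 0.0426). The latter call was lost without pools 5, 6, 7, 8, 9 or 11 (0.49 to 0.75, adjusted p 0.0502 to 0.132), and without the choroid plexus-bearing cortex, itself the highest of its group, the change was 0.47 (adjusted p = 0.0939).

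In hippocampus Rims1 values were 36.1, 59.0 and 148 CPM in WT, 68.7, 94.9 and 121 CPM in FAD IgG, and 84.3, 93.9 and 138 CPM in FAD CD38. The value of 148 CPM was WT replicate 9, and the next WT hippocampus lay at 69.7 CPM, below all FAD CD38 values. Rims1 rose by 0.71 ± 0.20 in FAD IgG (edgeR adjusted p = 0.0491), and the value for FAD CD38 was 0.66 ± 0.19 (adjusted p = 0.052). The FAD CD38 value was called with DESeq2, no filter, voom sample quality weights or the ribosomal RNA share as a covariate (0.63 to 0.72, adjusted p 2.43e-05 to 0.0499). The FAD IgG call was lost in 12 of 19 alternatives, among them without pools 5, 6, 9, 10 or 11 (0.59 to 0.77, adjusted p 0.108 to 0.287). The mean of both regions was steadier: 0.66 (95% interval 0.36 to 0.96) in FAD IgG and 0.64 (0.35 to 0.92) in FAD CD38, called in all 13 alternatives each.

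Lin7b, a PDZ-domain scaffold of the Lin7 family, fell. Its hippocampal values ran through 25.8, 29.0 and 34.2 CPM in WT, 16.5, 23.1 and 24.85 CPM in FAD IgG, and 13.3, 20.6 and 24.3 CPM in FAD CD38, from 16 to 163 counts per well. All 14 FAD hippocampi lay below all 8 WT hippocampi. Ranges were separate for 3.03% of all genes with FAD IgG and 2.62% with FAD CD38. Lin7b fell by 0.49 ± 0.13 on the log2 scale in FAD IgG (edgeR adjusted p = 0.0221) and by 0.61 ± 0.12 in FAD CD38 (adjusted p = 0.00338). The FAD CD38 call held in all 19 alternatives, while that of FAD IgG was lost without pools 6, 9, 10 or 11 (-0.42 to -0.53, adjusted p 0.0535 to 0.149).

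In cortex Lin7b values were 26.2, 34.5 and 46.3 CPM in WT, 19.8, 28.9 and 34.55 CPM in FAD IgG, and 21.7, 23.9 and 36.3 CPM in FAD CD38. The ranges overlapped. It fell by 0.42 ± 0.12 in FAD CD38 (edgeR adjusted p = 0.0426), a call lost in 11 of 19 alternatives, including without pools 5, 7, 8, 9, 10 or 11 (-0.36 to -0.44, adjusted p 0.0676 to 0.124), and the FAD IgG value was -0.42 ± 0.12 (adjusted p = 0.0638). The cortical FAD IgG value was called with DESeq2 (-0.43, adjusted p = 0.0395), with the ribosomal RNA share as a covariate (-0.42, 0.0189) and without pool 7. When the cortex wells of high ribosomal RNA share were left out, it was -0.31 ± 0.14 (edgeR adjusted p = 0.38). Over both regions Lin7b fell by 0.46 in FAD IgG (95% interval -0.66 to -0.26) and by 0.51 in FAD CD38 (-0.70 to -0.31), called in all 13 alternatives each. Its exons overlap Gm45619 and Mtag2 on the other strand in GENCODE M21, whose medians stayed at or under 2.05 CPM in every group, and the sources used here do not say whether counting used strand. Other members overlap genes of higher level on the other strand. Among them were Syn1 with Araf (WT cortex median 69.0 CPM), Syn2 with Timp4 (53.5), Rab3a with Mpv17l2 (17.7) and Unc13a with Colgalt1 (7.32). The part of overlapping genes in the members' values was not tested. Unc13a, the Munc13 priming factor, had mean differences of 0.01 (-0.27 to 0.30) and 0.22 (-0.05 to 0.49), and Pclo and Bsn, giant scaffolds of the active zone, of 0.22 and 0.22, and -0.06 and 0.06.

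Of the 7 synaptotagmins, Syt5 was called in hippocampus. Syt5 is a calcium-binding vesicle protein of the family. Its hippocampal values ran through 131, 158 and 222 CPM in WT, 109, 124 and 148.5 CPM in FAD IgG, and 85.1, 112 and 141 CPM in FAD CD38. WT replicate 9 was again the lowest WT well and gave the overlap with FAD CD38. Syt5 fell by 0.49 ± 0.12 in FAD CD38 (edgeR adjusted p = 0.0155), a call lost without pool 10 (-0.46, adjusted p = 0.0857), without pool 11 (-0.48, adjusted p = 0.0573) and with only the 2 groups compared (adjusted p = 0.0593). For FAD IgG the value was -0.41 ± 0.12 (adjusted p = 0.0672), and in cortex -0.10 ± 0.16 and -0.09 ± 0.16. Several other fits called the hippocampal FAD IgG value (-0.37 to -0.44, adjusted p 0.00578 to 0.0448). These were DESeq2, voom sample quality weights, the ribosomal RNA share as a covariate, choroid plexus wells out and the conflicting mouse in either group.

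Syt13, an atypical synaptotagmin, had mean differences over both regions of -0.25 (95% interval -0.43 to -0.07) in FAD IgG and -0.24 (-0.42 to -0.07) in FAD CD38, with adjusted p of 0.0921 and 0.0735 in limma-voom. The FAD CD38 mean was called with sample quality weights (-0.25, adjusted p = 0.0177) and once the wells of high ribosomal RNA share were dropped (-0.25, 0.0199). Its ranges overlapped in both regions. Syt1, the main calcium sensor of fast release, was close to WT, with mean differences of 0.03 (-0.27 to 0.32) and 0.03 (-0.25 to 0.31). Syt2, low at 17 to 131 counts per well, had the mean differences 0.06 (-0.33 to 0.44) and 0.25 (-0.11 to 0.61), the broadest intervals of the synaptotagmins. In cortex it was called for FAD CD38 with only the 2 groups compared (0.61, edgeR adjusted p = 0.0358) and without pool 7.

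None of the 6 SNARE fusion genes, the 2 complexins, the 2 tested synapsins, the 3 genes of the Rab3 group or the 4 recycling genes was called against WT in either region by edgeR's quasi-likelihood test or in the mean by limma-voom, with all wells. Other fits of the same wells called a few of them. Rab3a was called in hippocampus of both FAD groups with voom sample quality weights (-0.33 and -0.42, adjusted p = 0.0283 and 0.00338) and in edgeR with the ribosomal RNA share as a covariate (-0.31 and -0.40, 0.0416 and 0.00409). Rab3c was called in hippocampus of FAD CD38 with quality weights, that covariate, DESeq2 or no pool term (-0.44 to -0.47, adjusted p 0.00485 to 0.0361), and in the mean with quality weights (-0.27, 0.018). Cplx1 was called in hippocampus of FAD CD38 with quality weights (-0.25, 0.0398). At an unadjusted p under 0.05 in the mean of both regions by limma-voom, 0 of the 6 SNARE genes and 0 of the 4 recycling genes were found in either FAD group, and 1 of the 3 Rab3 group genes in each. Snap25, the plasma membrane SNARE, had mean differences of -0.10 (-0.26 to 0.06) and -0.03 (-0.19 to 0.12). In cortex its medians were 1771 CPM in WT, 2043 in FAD IgG and 2109 in FAD CD38, and in hippocampus 1442, 1257 and 1282 CPM. The FAD medians lay above the WT median in cortex and below it in hippocampus. With all wells edgeR called it in neither region, while DESeq2 called it lower in hippocampus of FAD IgG (-0.23, adjusted p = 0.00881) and FAD CD38 (-0.20, adjusted p = 0.0208).

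Rab3c, a vesicle GTPase, had a mean difference of -0.25 (-0.48 to -0.02, limma-voom adjusted p = 0.211) in FAD IgG and -0.29 (-0.51 to -0.08, adjusted p = 0.0834) in FAD CD38. Its hippocampal medians were 414, 325 and 281 CPM in WT, FAD IgG and FAD CD38, with overlapping ranges. Cplx1 and Cplx2 had mean differences between -0.16 and 0.06. Syn1, which tethers vesicles to actin, had -0.25 (-0.58 to 0.08) and -0.22 (-0.53 to 0.10).

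The 2 glutamate transporters had mean differences of opposite sign, and neither was called with all wells by edgeR or by limma-voom without sample weights. Slc17a6 (VGLUT2, the transporter of thalamic and other subcortical inputs) was low, at 8 to 58 counts per well. Its cortical medians were 9.57, 8.555 and 7.22 CPM in WT, FAD IgG and FAD CD38, and its hippocampal medians 10.35, 7.33 and 7.70 CPM. Mean differences were -0.43 (-0.86 to 0.01) and -0.48 (-0.89 to -0.06, limma-voom adjusted p = 0.156). The FAD CD38 mean of Slc17a6 was called with voom sample quality weights (-0.48, adjusted p = 0.0455) and once the wells of high ribosomal RNA share were dropped (-0.45, adjusted p = 0.0461). Slc17a7 (VGLUT1, the transporter of cortical and hippocampal excitatory neurons) had 0.14 (-0.16 to 0.44) and 0.14 (-0.14 to 0.43).

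The log2 ratio of Slc17a7 to Slc17a6 within each well was 3.64 ± 0.42 (SD, n = 9) in WT cortex, 4.05 ± 0.33 (n = 7) in FAD IgG and 4.12 ± 0.36 (n = 7) in FAD CD38, and in hippocampus 3.61 ± 0.29 (n = 8), 4.23 ± 0.91 and 4.27 ± 0.60 (n = 7 each). Neither FAD group differed from WT after adjustment over the 6 comparisons (two-sided exact permutation tests, differences of 0.42, 0.48, 0.62 and 0.66 with adjusted p = 0.0871, 0.0865, 0.121 and 0.0865). With the mean of each pool subtracted, the cortical differences became 0.52 (permutation adjusted p = 0.00839) and 0.54 (0.00524). In that setting values were permuted across pools and not within them, so its p-values are not exact. The differences also passed without pool 6 for FAD IgG cortex (0.60, adjusted p = 0.0373) and FAD CD38 hippocampus (0.80, 0.035), and without pool 8 in both cortical comparisons (0.51 and 0.49, 0.0466 each) and FAD CD38 hippocampus (0.86, 0.0466). The 9 thalamic markers other than Slc17a6 summed to medians of 83.9, 95.9 and 82.65 CPM in WT, FAD IgG and FAD CD38 cortex and 72.9, 89.9 and 81.1 CPM in hippocampus.

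More members fell in hippocampus once the wells of high ribosomal RNA share were left out, a setting chosen after seeing the data. It removed WT replicate 9, FAD IgG replicates 4 and 7 and FAD CD38 replicate 4. In FAD CD38 hippocampus 2 members then rose and 8 fell of 38, where 7.71% of all genes rose and 7.81% fell. The share of all genes that fell had been 0.754% with all wells. Added to those with all wells were Rims1 (0.72 ± 0.11, edgeR adjusted p = 0.000133), Rab3a (-0.43 ± 0.07, 0.000248), Rab3c (-0.44 ± 0.11, 0.00823), Syt13 (-0.33 ± 0.09, 0.0176), Cplx1 (-0.27 ± 0.08, 0.0178) and Snap25 (-0.23 ± 0.07, 0.0414).

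In FAD IgG hippocampus without those wells 2 rose and 4 fell, where 5.74% of all genes rose and 2.97% fell. Syngr3 (-0.40 ± 0.09, edgeR adjusted p = 0.00467), Syt5 (-0.39 ± 0.09, 0.00547) and Rab3a (-0.30 ± 0.08, 0.0171) were the additions. Rab3a is the main GTPase of synaptic vesicles. Its hippocampal values with all wells ran through 311, 471 and 676 CPM in WT, 299.5, 375 and 523 in FAD IgG, and 250.2, 356 and 451 in FAD CD38. The members' median in FAD CD38 against WT was -0.06 without those wells and -0.09 with them, and in FAD IgG -0.16 and -0.08. Other markers differed between these groups too: the sum of 13 inhibitory neuron markers in hippocampus had medians of 1774, 1387 and 1433 CPM in WT, FAD IgG and FAD CD38. Their part in the members' values was not tested.

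**Figure D3:**
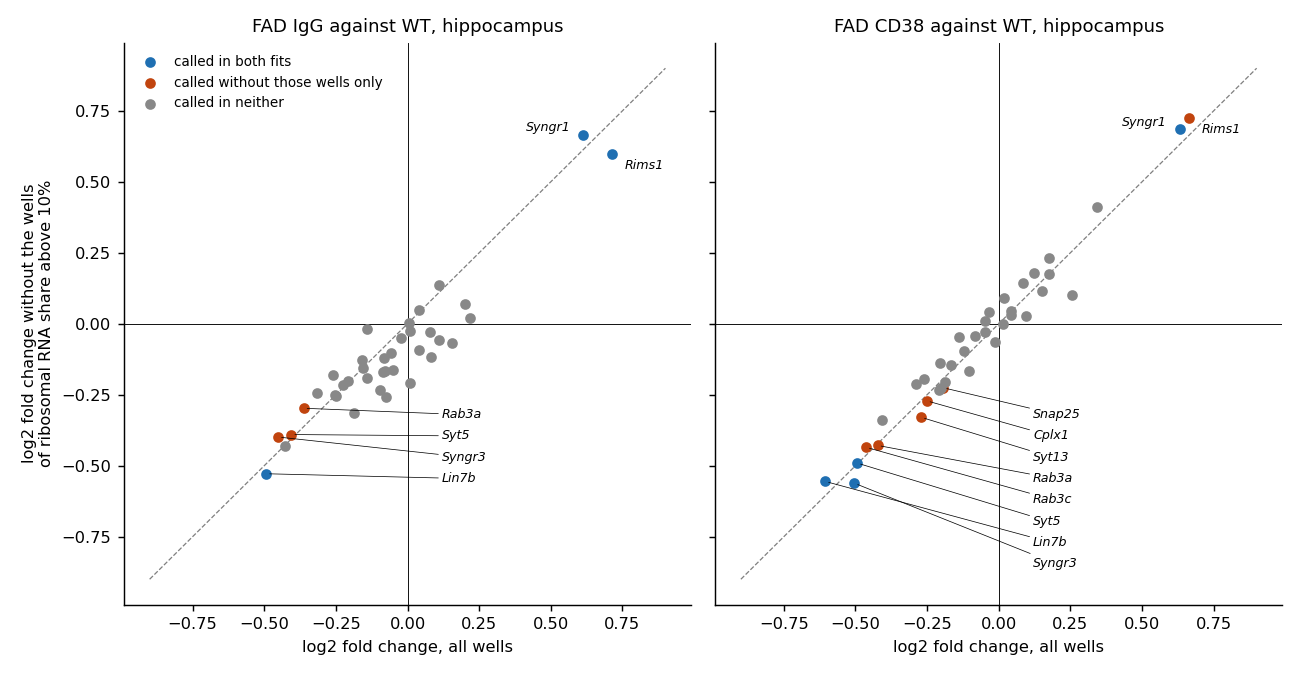
Log2 fold change against WT in hippocampus of the 38 tested members with all wells (horizontal) and without the 4 wells of ribosomal RNA share above 10% (vertical), for FAD IgG and FAD CD38. The dashed line marks equal values. For FAD IgG more points lie below it than for FAD CD38, and the members' median goes from -0.08 to -0.16. Orange points, such as Rab3a, were called by edgeR's quasi-likelihood test without those wells and not with all wells.

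No member passed the test between FAD CD38 and FAD IgG mice. Of 38 members 0 were called in cortex (0% of all genes), 0 in hippocampus (0%) and 0 in the mean of both regions (0%), and 0 had an unadjusted p under 0.05 in any of the 3. DESeq2 also called 0 members in each region. Ranges of the 2 groups were separate for 0 members, beside 0.00771% of all genes in cortex and 0.0314% in hippocampus. Without wells of high ribosomal RNA share 0 were called, and 3 members in cortex, 2 in hippocampus and 4 in the mean had an unadjusted p under 0.05. In cortex these were Unc13a (0.38 ± 0.18), Synj1 (0.37 ± 0.16) and Vamp2 (0.29 ± 0.14), each with edgeR adjusted p = 0.767. In hippocampus they were Unc13a (0.465 ± 0.12, edgeR unadjusted p = 0.000953) and Cplx2 (0.26 ± 0.11), each with adjusted p = 0.804.

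The 4 members of smallest p in the mean of both regions were Unc13a (0.21, 95% interval -0.09 to 0.50), Napb (-0.11, -0.31 to 0.09), Syt2 (0.19, -0.21 to 0.59) and Cplx2 (0.11, -0.12 to 0.33). For the members that differed from WT, the difference between FAD CD38 and FAD IgG was 0.05 for Syngr1 (-0.10 to 0.20), -0.02 for Rims1 (-0.33 to 0.28), -0.05 for Lin7b (-0.26 to 0.16), -0.03 for Syngr3 (-0.29 to 0.22) and -0.11 for Synpr (-0.35 to 0.13). For Syngr1, Rims1 and Lin7b both ends of the interval were smaller in size than the mean difference of FAD IgG from WT. The members' median was 0.06 in cortex and -0.01 in hippocampus, beside -0.0049 and 0.0055 over all genes. For the glutamate transporter ratio the differences were 0.07 and 0.04 (exact permutation adjusted p = 0.866 and 0.934).

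**Figure D4:**
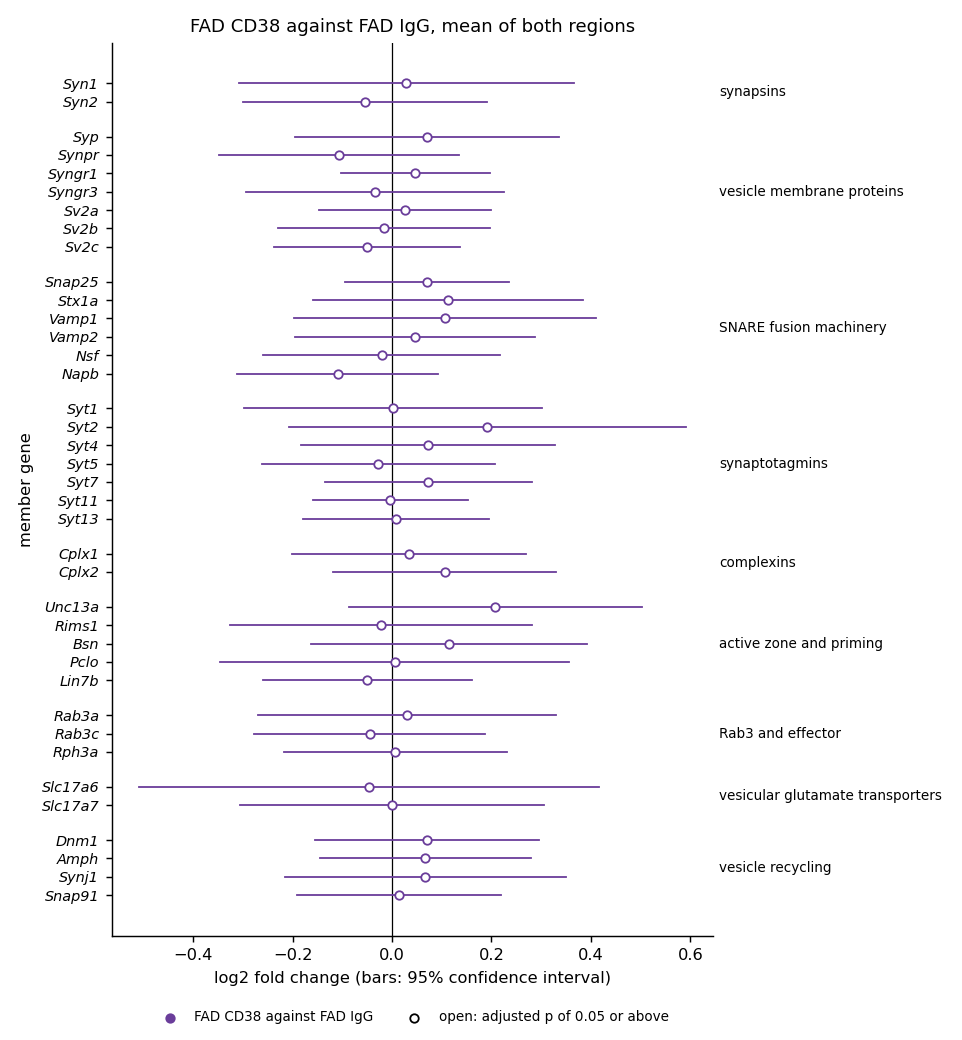
Log2 fold change of the 38 tested members between FAD CD38 and FAD IgG mice as the mean of both regions, with 95% confidence intervals from limma-voom. All points are open, and they run from -0.11 (Napb) to 0.21 (Unc13a).

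Whether the change in FAD IgG depended on the region was tested directly, as the difference in hippocampus minus that in cortex. None of 38 members passed in limma-voom, where 0.164% of all genes did, and 2 had an unadjusted p under 0.05. These were Snap25 (-0.32, 95% interval -0.56 to -0.08, adjusted p = 0.517) and Syp (-0.44, -0.82 to -0.05, adjusted p = 0.66). For Syngr1 the regional difference was 0.11 (-0.10 to 0.33), for Rims1 -0.04 (-0.48 to 0.40) and for Lin7b -0.11 (-0.40 to 0.19). The same test of FAD CD38 against FAD IgG called 0 members, 0 at an unadjusted p under 0.05, and 0% of all genes. The regional difference for FAD CD38 against WT is not given here. Calls of FAD CD38 in 1 region, as for Synpr, Syngr3 and Syt5, therefore do not show a difference between regions.

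The 2 regions themselves drew on the release genes unequally. Across 23 mice, with the mouse as a block, 10 members were higher and 18 lower in hippocampus than in cortex by edgeR's quasi-likelihood test, and 24% and 22.7% of all genes were. Some paralogues of the same role went to opposite sides. Syn2 was higher and Syn1 lower in hippocampus, Cplx2 higher and Cplx1 lower, and Rab3c higher and Rab3a lower. Vamp1 and Vamp2, and Syngr1 and Syngr3, were all lower. Syngr3 was lower in 15 of 23 mice, and its call was lost without the mouse block and without pools 6, 7, 8 or 9. Vamp1, Vamp2 and Syngr3 were called in no alternative fit of WT mice alone. In the 8 WT mice with both regions 7 members were higher and 9 lower, beside 14.3% and 13.5% of all genes, and Syn2, Cplx1, Cplx2 and Rab3c were among the calls, while Syn1 (-0.27, adjusted p = 0.0578) and Rab3a (-0.16, adjusted p = 0.288) were not.

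Stx1a, the plasma membrane syntaxin, differed most. Its median in WT was 178 CPM in cortex and 57.4 CPM in hippocampus, and it was lower in hippocampus in 23 of 23 mice. The lowest WT cortex (149 CPM) exceeded the highest WT hippocampus (91.3 CPM). The log2 difference was -1.86 ± 0.07 (SE, edgeR adjusted p = 5.33e-23), and -1.65 ± 0.10 in WT mice alone. Its partners Snap25 (-0.59 ± 0.06), Vamp1 (-0.45 ± 0.08) and Vamp2 (-0.26 ± 0.07) were lower by less, while the disassembly factors Nsf (0.50 ± 0.08) and Napb (0.16 ± 0.06) were higher. Napb was higher in 15 of 23 mice. Its call was lost in most alternatives, among them RLE factors, no mouse block and wells of high ribosomal RNA share left out.

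The other 4 members with the largest decreases in hippocampus were Syt2, a synaptotagmin of fast inhibitory terminals (-0.86 ± 0.12, lower in 22 of 23 mice), Rph3a, the Rab3 effector rabphilin (-0.68 ± 0.06, 23 of 23), Cplx1 (-0.65 ± 0.07, 23 of 23) and Syt5 (-0.62 ± 0.06, 23 of 23), with edgeR adjusted p from 1.02e-11 to 1.02e-07. Medians in WT cortex and hippocampus were 15.2 and 9.65 CPM for Syt2, 94.2 and 61.3 CPM for Rph3a, and 339.5 and 261 CPM for Cplx1. Rims1 was lower too (-0.57 ± 0.08, 22 of 23), and Bsn (-0.41 ± 0.08).

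The 5 largest increases were Syn2 (0.62 ± 0.07, higher in 21 of 23 mice), Synj1, the phosphoinositide phosphatase that uncoats vesicles (0.55 ± 0.07, 23 of 23), Nsf (0.50 ± 0.08, 22 of 23), Rab3c (0.49 ± 0.08, 21 of 23) and Cplx2 (0.32 ± 0.06, 21 of 23), with edgeR adjusted p from 1.52e-09 to 4.76e-05. Syn2 medians were 277 CPM in WT cortex and 447.5 CPM in WT hippocampus, and those of Rab3c 261 and 414 CPM. Of the 4 recycling genes Synj1 and Amph were called higher and none lower. Syp (-0.14 ± 0.08), Sv2a, Syt1 (0.13 ± 0.07), Unc13a and both glutamate transporters were not called. The 10 members named here as largest kept their calls in all 13 alternatives.

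**Figure D5:**
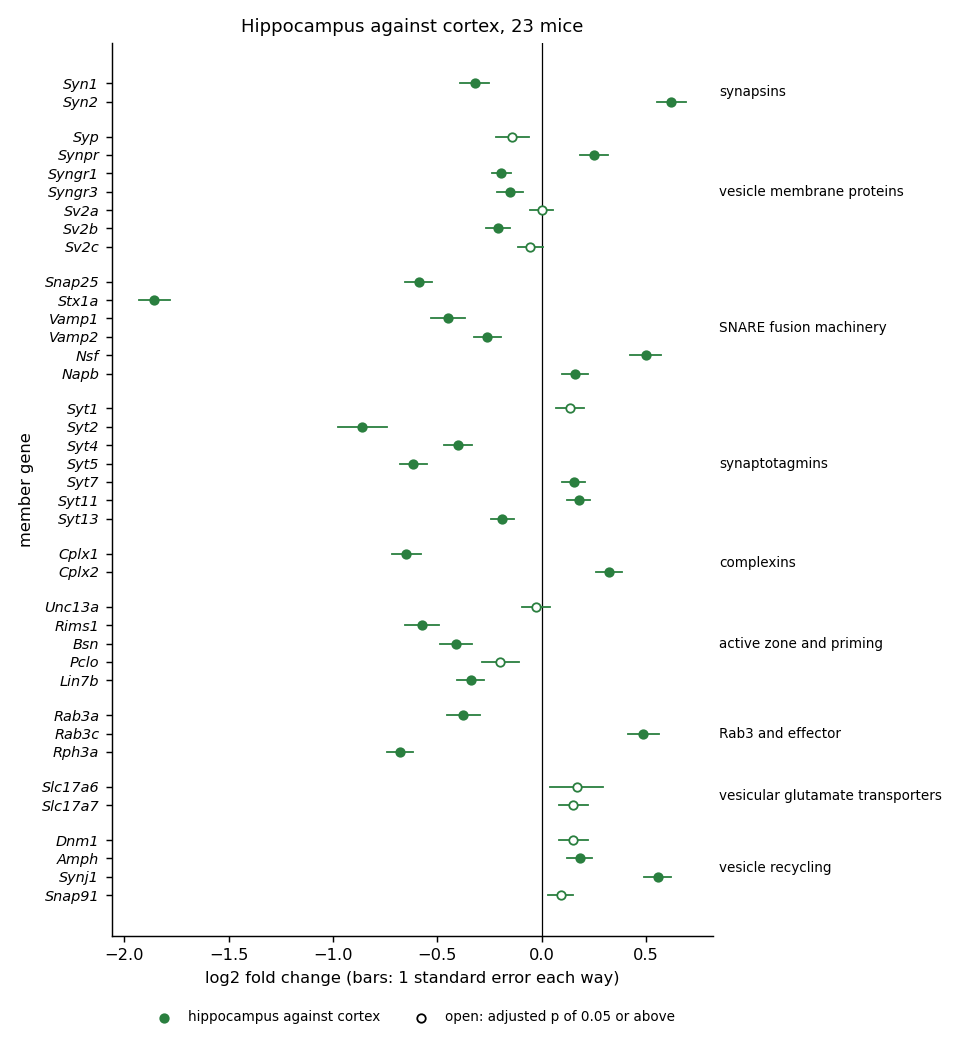
Log2 difference between hippocampus and cortex of the 38 tested members over 23 mice, with 1 standard error each way, from edgeR with the mouse as a block; filled points were called. Stx1a lies far to the left at -1.86, and synapsins, complexins and the Rab3 group each hold members on both sides of 0.

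Within WT mice the members also differed in how evenly they were expressed. The SD of log2 CPM over WT hippocampi was lowest for Snap25 (0.089), Syngr1 (0.098) and Syt11 (0.0996) and highest for Pclo (0.72), Syt2 (0.57) and Rims1 (0.57), where WT replicate 9 held the highest value. Without that well the SDs of these 3 were 0.47, 0.26 and 0.32, and that of Syt1 (0.37) came second after Pclo. In WT cortex the SD of Syngr1 was 0.14 and that of Rims1 0.30.

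A wider list of 87 presynaptic genes outside the 39 was read the same way, and 84 were in the table. Of the 78 tested in each region, 2 rose in cortex of FAD IgG and 2 in cortex of FAD CD38 with none falling, 2 rose in hippocampus of FAD IgG, and 3 rose and 2 fell in hippocampus of FAD CD38. Of all genes 3.34%, 3.3%, 4.48% and 4.56% rose in these comparisons, in that order, and 0.532%, 1.23%, 0.416% and 0.754% fell. Ppfia4, a liprin-alpha scaffold, rose in all 4 comparisons, by 1.09 ± 0.14 and 0.93 ± 0.14 in cortex and 0.96 ± 0.13 and 0.84 ± 0.13 in hippocampus (edgeR adjusted p at most 0.000139). Picalm, a clathrin adaptor, rose in cortex of both FAD groups (0.46 and 0.47) and hippocampus of FAD CD38 (0.63), and Snap23, the broadly expressed relative of Snap25, in hippocampus (0.76 and 0.85). Syt17 (-0.49) and Sh3gl3, an endophilin (-0.42), fell in hippocampus of FAD CD38. In the mean of both regions 4 of 80 rose and 2 fell in FAD IgG, beside 5.68% and 1.7% of all genes. Ppfia4, Picalm, Snap23 and Dnm2 (0.46, limma-voom adjusted p = 0.00574) rose, and Syt16 (-0.32, 0.0431) and Vamp4 (-0.29, 0.0474) fell. For FAD CD38 Ppfia4, Picalm and Dnm2 (0.39, 0.0164) rose, and Atp6ap2 (-0.52, 0.00158), Syt16 (-0.39, 0.00593) and Syt17 (-0.35, 0.043) fell, beside 5.82% and 2.76% of all genes. None of the 78 was called between the FAD groups, and 0 had an unadjusted p under 0.05 in either region.

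Markers of other cells moved with these comparisons. The sum of 14 microglial markers ran from 468 to 821 CPM over the WT wells of both regions and from 1933 to 3400 CPM over the FAD wells, with no overlap, and no marker of the list was at 0. The sum of 10 astrocyte markers had medians of 3801.5, 4352 and 3987 CPM in WT, FAD IgG and FAD CD38 cortex and 3030, 4462.5 and 4707 CPM in hippocampus. Their part in the rise of Syngr1, Rims1, Picalm or Snap23 was not tested.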

How the data were processed

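Bulk mcSCRB-seq was run on 47 wells (cortex and hippocampus, 24 mice, 7 pools). The deposited table holds raw counts, whole numbers with a row per gene symbol and a column per well, per the file headers. Per the submitters' processing notes the authors used bcl2fastq 2.17 and STAR 2.5.3a. The sources used here do not state the genome build, the counting program, its strand setting or whether molecular identifiers were collapsed. Groups came from the deposited sample sheet and the well names, and 1 mouse of pool 8 on which they disagree was left out of group comparisons. The replicate was the mouse. Whether litters or cages were shared is not given.

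The members, lists and tests were chosen with earlier results of these data known. Each region was fitted over all genes and all 3 groups by robust quasi-likelihood in edgeR 4.0.16 (R 4.3.3), with TMM factors, pool as additive factor and filterByExpr at its default limits of 10 counts and 15 in total, two-sided, with Benjamini-Hochberg adjustment. SE is the absolute log2 fold change over the square root of F. The mean of both regions and their difference used limma 3.58.1 (voom, mouse as correlated block, correlation 0.256), and hippocampus against cortex edgeR with the mouse as block. CPM used TMM over all wells, and log2 CPM a prior count of 2. The lowest chi-square per degree of freedom between replicates was 2.74, so no well was counted as a repeat. The code was tested on simulated counts.

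Values were given in full for members called in any comparison of groups, the 6 of smallest p in the mean of FAD IgG against WT, the 4 in FAD CD38 against FAD IgG, the 5 with the largest regional difference in each direction, and Snap25, Syt1, Syp, Slc17a6 and Slc17a7. Other presynaptic genes were named where called in a comparison of groups, up to 6 of smallest p in each. Alternatives were DESeq2 1.42.0, RLE factors, no filter, a mean of at least 10 counts, no pool term, only the 2 groups compared, voom with sample quality weights, no mouse block, an added count of 5 or pool means subtracted for the ratio, and each pool left out. Chosen after seeing the data were leaving out wells with over 10% ribosomal RNA or over 1000 CPM of choroid plexus markers, the ribosomal RNA share as a covariate, and the conflicting mouse counted in either group. Promoter windows are from RefSeq, GRCm38.p6.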

Additional observations from a re-analysis of the deposited data

Results flagged for a closer look

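Values of the 23 members given in full were checked for wells far from the rest of their group, and 26 stood apart in 138 sets of member, region and group, where chance gives about 1 in 20 sets. Of these, 8 were in 1 well, WT hippocampus replicate 9 (ribosomal RNA share 20.6%). It held the highest WT value of Nsf (470.6 CPM, next 287.5), Syt2 (26.8, next 11.7), Unc13a (93.5, next 48.5), Rims1 (148, next 69.7), Rph3a (96.45, next 62.4), Slc17a6 (19.5, next 11.8), Slc17a7 (264, next 152) and Synj1 (230.4, next 126).

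FAD CD38 hippocampus replicate 4, with choroid plexus transcripts at 19011 CPM, held the lowest value of its group for Synpr (30.9 CPM, next 69.9) and Syngr1 (97.6, next 138). It held the highest for Syt1 (911, next 569.7), Rims1 (138, next 103), Slc17a7 (362, next 146) and Synj1 (201, next 138). FAD IgG hippocampus replicate 4, with choroid plexus transcripts at 9699 CPM, was lowest for Snap25 (1061 CPM, next 1250).

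In the remaining hippocampi, Napb was lowest in FAD IgG replicate 2 (241 CPM, next 345), Syt5 highest in WT replicate 2 (222, next 174) and Rph3a highest in FAD CD38 replicate 7 (83.9, next 68.6). In cortex, WT replicate 8 was highest for Syt1 (834 CPM, next 592) and Syt2 (32.9, next 18.3). FAD IgG replicate 5, the well of fewest counts, was highest for Cplx2 (725, next 532) and lowest for Rab3c (161, next 221). Syn2 was highest in FAD IgG replicate 4 (409, next 307) and Syngr1 lowest in FAD IgG replicate 7 (119.8, next 150.2). Rims1 was highest in FAD CD38 replicate 7 (255, next 165), which carried choroid plexus transcripts, and Slc17a7 in FAD CD38 replicate 4 (179.6, next 135).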

How the results depend on the processing

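Syngr1 kept its call in every alternative tried. Of the named calls in single regions, those of Lin7b, Rims1, Synpr, Syngr3 and Syt5 were lost in some, and no called member changed direction. Beside the losses given with each gene, adjusted p was 0.0672 to 0.127 for cortical Lin7b in FAD CD38 (no filter, no pool term, choroid plexus wells out, conflicting mouse in either group), 0.0516 to 0.206 for hippocampal Rims1 in FAD IgG (RLE factors, a mean of at least 10 counts, no pool term, only the 2 groups, choroid plexus wells out, conflicting mouse), and 0.0543 and 0.0621 for cortical Rims1 in FAD CD38 (conflicting mouse). The number of members called moved by over 1.5 times as follows. For FAD IgG against WT in cortex it was 1, but 3 with DESeq2, 2 without the filter, without the pool term, with only the 2 groups compared or without wells of high choroid plexus markers, and 4 with the ribosomal RNA share as a covariate. For FAD CD38 against WT in cortex it was 4, but 2 without the filter or with the conflicting mouse in either group, and 1 without wells of high choroid plexus markers. In hippocampus FAD IgG against WT went from 3 to 6 with DESeq2, with voom quality weights, without wells of high ribosomal RNA share and with that share as a covariate. FAD CD38 against WT went from 4 to 7 with DESeq2 or the covariate, 9 with voom quality weights, 10 without wells of high ribosomal RNA share and 2 with only the 2 groups compared. In the mean of both regions voom quality weights gave 5 in place of 3 for FAD IgG and 10 in place of 5 for FAD CD38, and without the wells over the ribosomal RNA limit FAD CD38 had 9. In WT mice the regions differed in 16 members, and in 10 without the mouse block.

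Leaving out 1 pool at a time gave 1 to 2 members for FAD IgG and 1 to 3 for FAD CD38 against WT in cortex, 1 to 5 and 2 to 6 in hippocampus, 3 to 4 and 3 to 6 in the mean of both regions, 24 to 28 between regions and 11 to 19 between regions of WT mice. It gave 0 in every comparison of FAD CD38 with FAD IgG. The members' median for FAD CD38 against FAD IgG in hippocampus went from -0.0129 to 0.0506 without wells of high ribosomal RNA share, and for FAD CD38 against WT there it ran from -0.16 to 0.0211 with 1 pool left out, the latter without pool 8. Ratios of Slc17a7 to Slc17a6 with 1 pool left out differed from WT by 0.31 to 0.60 and 0.44 to 0.53 in cortex and 0.36 to 0.81 and 0.54 to 0.86 in hippocampus. With the pool mean subtracted the cortical differences were 0.52 and 0.54. The cause of these shifts was not tested. Members of a few CPM, such as Syn3, Slc17a6 and Syt2, rest on few counts.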
